A study of Mus musculus with 8 samples.

Results

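The replication-dependent histone genes of the mouse were compared between 2D and 3D cultures of adipose-derived stem cells (ADSCs). They were taken as all genes whose symbol begins with Hist1h, Hist2h, Hist3h or Hist4h, which gave 68 of the 24346 genes listed. By symbol, 6 of these belong to the linker histone H1, 18 to H2A, 19 to H2B, 12 to H3 and 13 to H4. Hist3h2bb-ps, kept among the H2B genes, is annotated as a processed pseudogene. Core histones H2A, H2B, H3 and H4 form the octamer around which DNA is wound, and H1 binds the DNA between these particles. Cells make most of this RNA in S phase, when new DNA must be packaged, and degrade it when DNA synthesis ends. Its messages usually end in a stem-loop that the stem-loop binding protein SLBP holds, in place of a poly(A) tail, so libraries made after depletion of ribosomal RNA keep them while libraries selected for poly(A) lose most of them.

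In GENCODE M21, which annotates GRCm38 (mm10), 54 of the genes lie on chr13:21715763-23934851 in the large Hist1 cluster. A further 10 lie on chr3:96219865-96270132, 3 on chr11:58948920-58956830 and 1 on chr6:136801553-136804415. Gene models hold an intron in 5 of the 68. Members are so alike in sequence that 24 share more than 1 in 2 of their 100-base windows with another member, and 10 share no window. How the authors' counting divided reads between such copies is not given in the sources used here, so that the level of a single member with many shared windows is uncertain. Hist1h2be and Hist1h1e also overlap on the same strand, as do Hist3h2a and Trim17. On the other strand, 21 members overlap an annotated gene, among them all 18 H2A genes, and without a known strand setting the reads of such partners cannot be told apart.

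Total RNA of 8 primary cultures from wild-type (WT) BALB/c mice was sequenced, 4 grown in 2D (from mice 2, 3, 4, 5) and 4 in 3D (from mice 1, 4, 5, 7). All cells came from the gonadal fat of adult male mice and were labelled as adipose mesenchymal stem cells. The 3D cultures grew as organoids in Matrigel and had their own medium, so that dimension and medium cannot be told apart. Both kinds of culture were sequenced from mice 4 and 5. The 3D library of mouse 1 was placed by its title, since its description in the labels has another form than those of the other 3D libraries. It also stood apart in that genes under 300 nt took 63.2% of its deposited FPKM total, against 19.5 to 40.6% in the other 7 libraries. Estimated depth was 16.4 to 17.3 M fragments in 2D and 14.55 to 15.55 M in 3D. At these depths 3 fragments on a gene of 500 nt correspond to between 0.347 and 0.412 FPKM (fragments scaled by gene length and library depth), counting error only. Values below are quantile-normalized FPKM unless said otherwise, and p-values measure the spread between these cultures.

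The cultures did not carry the same cell type markers. Summed FPKM over 7 stromal markers was between 1224 and 3089 in 2D and between 4.72 and 8.15 in 3D, where Pdgfrb was listed at 0 in every library and most of the remainder was Twist1, at 4.59 to 7.99 FPKM. The sum over 7 epithelial markers was between 2301 and 2723 FPKM in 3D. In 2D it was 6.33 FPKM for mouse 2 and 3.54 for mouse 5, but 145 for mouse 3 and 585 for mouse 4. Most of it in 2D mice 3 and 4 was Krt8 (26.8 and 261 FPKM) and Krt18 (114 and 256 FPKM). Epcam, Cdh1, Cldn3 and Cldn4 were each at 0.716 FPKM or less in these libraries. Fewer cells of a type and less RNA per cell cannot be told apart in such bulk RNA, and the part of these markers in the histone results was not tested.

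The stem-loop at the end of the message is the feature that sets this family apart, and its letters differed by histone type. Transcripts were searched on their own strand for 16 bases that begin with GG and end with CC, with TTT at positions 6 to 8, A at position 11 and all 6 bases of the stem paired, where G may pair with T. The pattern was found in 44 of the 68 members (4 of 6 H1, 11 of 18 H2A, 10 of 19 H2B, 8 of 12 H3 and 11 of 13 H4) and in 62 of 21834 other protein-coding genes (0.284%). Models that stop at the coding end do not reach it, but it was also not found in some longer models, such as those of Hist1h2bc (1156 nt) and Hist2h2be (2620 nt). The following sequences from GENCODE M21 (GRCm38) show each form found, with the stem and loop in capitals and up to 5 bases on each side.
Hist1h1c (H1, chr13:23739507-23739532, plus strand): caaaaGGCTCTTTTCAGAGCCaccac
Hist1h2ab (H2A, chr13:23751567-23751592, plus strand): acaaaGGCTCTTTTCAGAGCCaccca
Hist3h2ba (H2B, chr11:58949344-58949369, plus strand): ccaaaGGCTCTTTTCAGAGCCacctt
Hist1h3c (H3, chr13:23745042-23745067, minus strand): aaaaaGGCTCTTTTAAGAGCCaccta
Hist2h2ac (H2A, chr3:96220413-96220438, minus strand): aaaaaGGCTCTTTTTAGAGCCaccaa
Hist1h4d (H4, chr13:23581945-23581970, plus strand): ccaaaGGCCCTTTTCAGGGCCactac
Hist1h4i (H4, chr13:22040961-22040986, minus strand): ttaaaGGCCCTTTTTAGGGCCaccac
Hist1h4b (H4, chr13:23757361-23757386, plus strand): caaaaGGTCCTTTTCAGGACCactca

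The form of Hist1h2ab, with GGCTC in the stem, was shared by 3 H1, 10 H2A, 8 H2B and 5 H3 genes. Hist1h3c shows a loop variant found in 1 H1, 2 H2B and 3 H3 genes, and the variant of Hist2h2ac was found in that gene alone among the members. The H4 genes had other stems. The form of Hist1h4d was found in 7 of them, that of Hist1h4i in 2 and that of Hist1h4b in 2, and none of these forms was found in a member of another type.

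Promoter letters also differed by type. Windows of 300 bases around the RefSeq start (GRCm38) were found for 62 members and searched on both strands. CCAAT, the letters bound by the factor NF-Y, was found in all windows of 6 H1, 18 H2A, 16 H2B and 10 H3 genes, but in 3 of 12 H4 windows (Hist1h4a, Hist1h4c and Hist1h4d), against 37.4% of 32851 promoters of all genes. The octamer ATTTGCAT, bound by Oct-1 (Pou2f1), was found in 7 of 18 H2A and 7 of 16 H2B windows and in 0 of the other types, against 1.74% of all promoters. Windows of H2A and H2B genes that start head to head can overlap, so that the same octamer may count for both partners. Both were marked in Hist1h2aa with Hist1h2ba, Hist1h2ae with Hist1h2bg and Hist1h2ah with Hist1h2bk. AAACACA, known as a box of H1 promoters, was found in 5 of 6 H1, 2 of 18 H2A, 2 of 16 H2B, 0 of 10 H3 and 0 of 12 H4 windows (7.18% of all promoters). TATAAA was found in 4 H1, 11 H2A, 8 H2B, 4 H3 and 8 H4 windows (13.6% of all promoters). The 100 bases before the start of members described below are shown to compare the types, with letters of these motifs on either strand in capitals.
Hist1h2ab (H2A, chr13:23750988-23751087, plus strand): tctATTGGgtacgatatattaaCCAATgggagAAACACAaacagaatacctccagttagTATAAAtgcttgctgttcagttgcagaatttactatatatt
Hist1h2bb (H2B, chr13:23746634-23746733, plus strand): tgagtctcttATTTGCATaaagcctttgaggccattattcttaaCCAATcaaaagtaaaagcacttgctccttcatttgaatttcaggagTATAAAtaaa
Hist1h3b (H3, chr13:23752245-23752344, plus strand): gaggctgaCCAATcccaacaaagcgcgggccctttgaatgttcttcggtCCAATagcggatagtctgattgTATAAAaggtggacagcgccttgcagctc
Hist1h1e (H1, chr13:23622559-23622658, minus strand): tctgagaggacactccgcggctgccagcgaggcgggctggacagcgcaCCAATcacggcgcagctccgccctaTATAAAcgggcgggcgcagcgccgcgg
Hist1h4c (H4, chr13:23698459-23698558, minus strand): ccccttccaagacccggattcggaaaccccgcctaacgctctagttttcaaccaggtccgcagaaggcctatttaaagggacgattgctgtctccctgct
Hist1h4h (H4, chr13:23530944-23531043, plus strand): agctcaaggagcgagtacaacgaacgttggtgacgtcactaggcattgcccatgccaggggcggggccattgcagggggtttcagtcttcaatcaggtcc
Hist3h2ba (H2B, chr11:58948811-58948910, plus strand): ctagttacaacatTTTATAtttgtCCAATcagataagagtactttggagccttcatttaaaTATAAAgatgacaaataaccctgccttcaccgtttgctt

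Of the 68 genes, Hist1h2aa and Hist1h4n were listed at 0 in every library and 66 were tested. Most of them had a lower level in 3D. The change, 3D minus 2D on the log2(FPKM + 1) scale, was negative in 53 and positive in 13 of the 66, with a median of -0.61 (quartiles -1.25 and -0.03) against 0.0012 over all 18862 genes tested. At an adjusted p below 0.05 (limma, Benjamini-Hochberg over all genes), 10 members, or 15.2%, were lower in 3D, where 20.3% of all genes were. Only Hist3h2ba, or 1.52% of the members, was higher, where 21.2% of all genes were. In this fit the share called lower was therefore no larger than that over all genes, while the share called higher was smaller. The statement on the share called lower did not hold in every alternative, as given below. The libraries of the cultures did not overlap in 7 members that were lower and in 1 that was higher, beside 20.9% and 21.6% of all genes. With the mouse as a block, which rests on mice 4 and 5 and 1 residual degree of freedom, 0 members and 0 genes in all were called, and 1 member lower and 2 higher had an unadjusted p below 0.05.

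H4 genes had a median change near 0 and the other types one below it. The median change was -0.74 for 6 H1 genes, -0.94 for 17 H2A, -0.68 for 19 H2B and -0.61 for 12 H3, but -0.01 for 12 H4. The H1 value rests in part on Hist1h1t, which averaged below 1 FPKM, and was -0.41 over the 5 other H1 genes. Over members that averaged 1 FPKM or more, the median was -1.23 for 14 H2A genes, -0.76 for 16 H2B, -0.88 for 10 H3 and -0.01 for 12 H4. Called lower were 1 H1 (16.7%), 3 H2A (17.6%), 3 H2B (15.8%) and 3 H3 genes (25%), shares on either side of the 20.3% of all genes. Among H4 genes 0 of 12 were called lower or higher (also 0 at an unadjusted p below 0.05), and without Hist1h1t 0 of 5 H1 genes were. The H4 changes ran from -0.63 to 0.71, with 6 below and 6 above 0. With values as deposited the H4 median was -0.56, with upper-quartile scaling -0.50 and without genes under 300 nt 0.11, and again 0 H4 genes were called, while the first 2 of these moved the medians of H2A, H2B and H3 to between -0.87 and -1.17. The same scaling moved the median of 752 other genes that averaged 100 FPKM or more from 0.04 to -0.47 as deposited, so that levels of H4, of which 10 of 12 tested genes lay in that range, depend on the scaling.

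**Figure D1:**
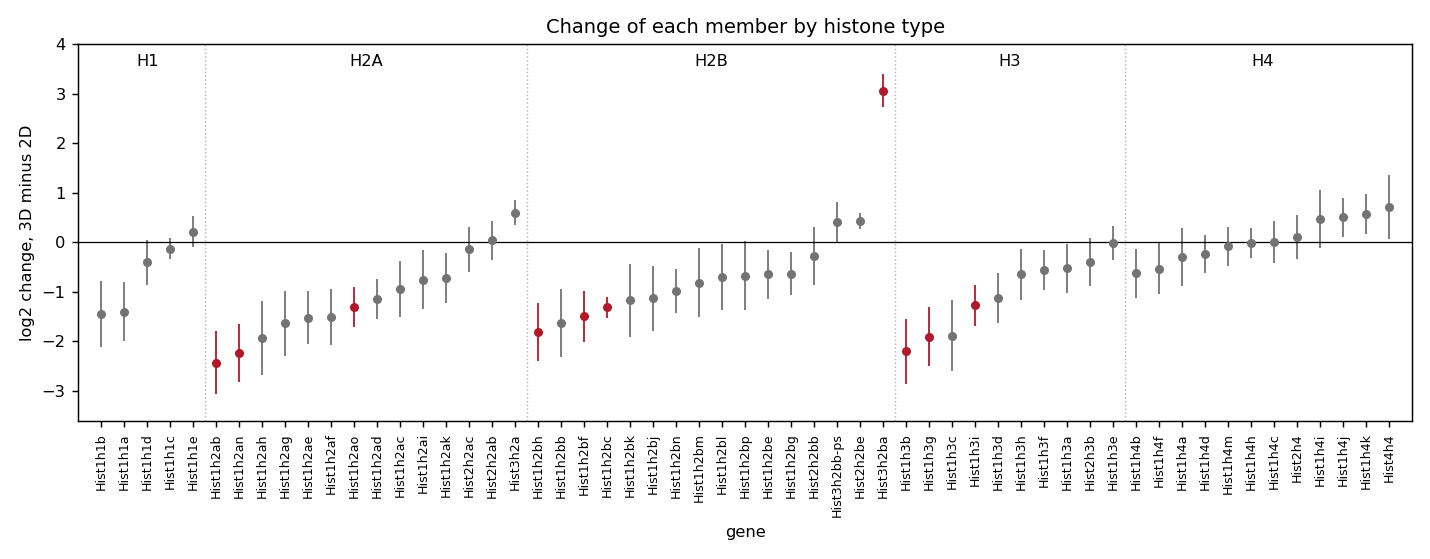
Change of the 57 members that averaged 1 FPKM or more (y axis, log2 FPKM + 1, 3D minus 2D) by gene (x axis), grouped by histone type and sorted within it, with bars of 1 SE and red points for an adjusted p below 0.05 (limma, n = 4 per culture). H1, H2A, H2B and H3 lie mostly below 0, the H4 genes lie from -0.63 to 0.71 around 0, and Hist3h2ba stands alone at 3.06.

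A large part of the spread lay within the 2D cultures. Among 57 members that averaged 1 FPKM or more, the 2D libraries of mice 2 and 5 were both above those of mice 3 and 4 in 54, or 94.7%, where 33.6% of 12583 genes at that level were. They were the highest 2 of all 8 libraries in 42 members. The 2D libraries of mice 3 and 4, the 2D libraries with the higher Krt8 and Krt18, had median ranks of 5 and 7 (rank 1 is the highest of 8). Every 3D library was below both of them in only 7 members. The lowest library was that of 3D mouse 7 in 31 members and that of 2D mouse 4 in 21. Summed over all members, the level was 10435 FPKM in 2D mouse 2, 5084 in mouse 3, 3100 in mouse 4 and 10572 in mouse 5, and 6068, 6321, 4347 and 3706 FPKM in 3D mice 1, 4, 5 and 7. The groups overlapped, since 2D mouse 4 was the lowest of all 8.

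Calls depended on which libraries were in. The count of members lower in 3D, of 66 tested, was 17 without 2D mouse 4, 6 without 2D mouse 3, 4 without 2D mouse 5 or 3D mouse 7, and 3 without 2D mouse 2 or 3D mouse 5. Over all genes, 3835 of 18632 were lower without 2D mouse 4, a smaller share than that of the members. Without 3D mouse 4 it was 12 members and 3377 of 18729 genes, near equal shares. Without 3D mouse 5 it was 3204 of 18762 genes. Hist1h2ab, Hist1h2an, Hist1h2bc and Hist3h2ba were called whichever library was left out.

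**Figure D2:**
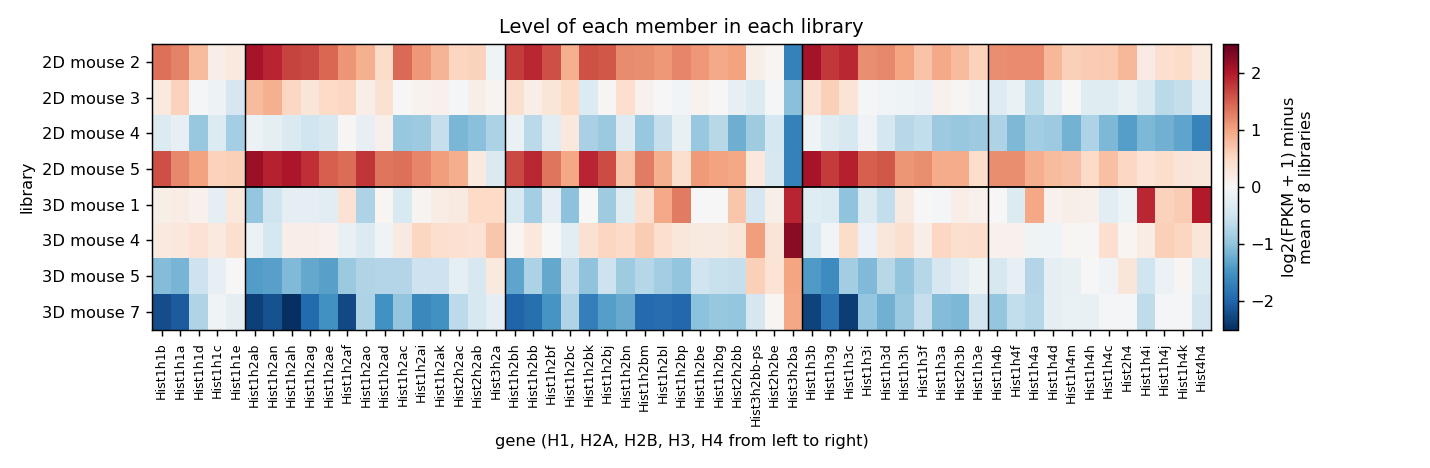
Level of 57 members (x axis, ordered by type and change) in each of the 8 libraries (y axis), as log2(FPKM + 1) minus the gene's mean over the 8 libraries, red above and blue below. The 2D libraries of mice 2 and 5 are red for most genes, 2D mouse 4 is blue for most H4 genes, and 3D mouse 7 is the lowest library in 31 genes, with its darkest blue among H1, H2A, H2B and H3.

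**Figure D3:**
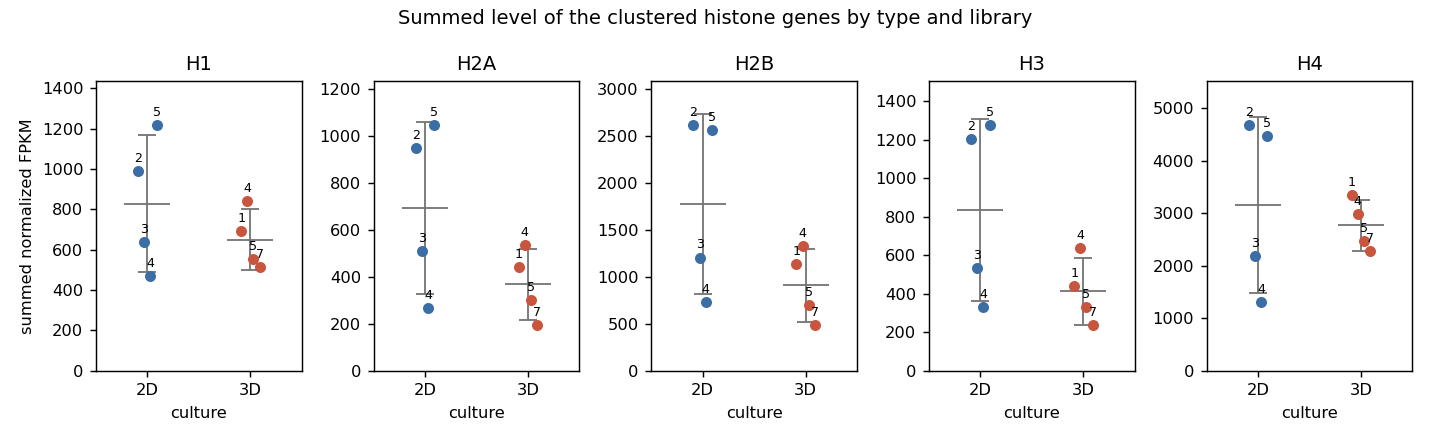
Summed normalized FPKM of each histone type (y axis, from 0) by culture (x axis), with 1 point per library labelled with its mouse number and lines for mean and SD (n = 4). For every type 2D mice 2 and 5 stand highest, and for H4 alone the 3D libraries (2278 to 3356 FPKM) all lie above 2D mice 3 (2192) and 4 (1305), while as deposited 3D mice 5 and 7 lie below 2D mouse 3.

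The H1 genes are linker histones. Their sum was 990, 640, 468 and 1217 FPKM in 2D mice 2, 3, 4 and 5 and 692, 843, 554 and 514 FPKM in 3D mice 1, 4, 5 and 7, a difference of -0.28 on the log2 scale of the summed levels with overlapping groups. Hist1h1c, the most abundant, was at 337, 276, 235 and 445 FPKM in 2D and 255, 357, 260 and 283 FPKM in 3D (-0.13, SE 0.21, limma adjusted p = 0.634). Its levels in 3D all lay within the range of 2D. Hist1h1e was at 208, 130, 96.7 and 264 FPKM in 2D and 210, 229, 176 and 148 FPKM in 3D (0.21, SE 0.32, limma adjusted p = 0.612), and its change was -0.39 with values as deposited. Hist1h1d was at 180, 101, 53.6 and 211 FPKM in 2D and 112, 133, 72.1 and 61.3 FPKM in 3D (-0.41, SE 0.46, limma adjusted p = 0.505). Both overlapped between the cultures. Hist1h1b was at 192, 86.7, 57.4 and 227 FPKM in 2D and 81.2, 87.4, 33.8 and 15.0 FPKM in 3D, with a change of -1.45 (SE 0.66, limma adjusted p = 0.119). This gene had the lowest change of the H1 type, but 3D mice 1 and 4 lay above 2D mouse 4. The only H1 gene called was Hist1h1t, a linker histone of the testis, at 2.23, 2.32, 0.192 and 1.02 FPKM in 2D, 0.355 FPKM in 3D mouse 7 and 0 in the other 3D libraries (-1.06, SE 0.33, limma adjusted p = 0.0326). Its levels in 3D and in 2D mouse 4 were at 0 or near the limit of a few fragments. The call was lost in 6 of 8 settings that left out 1 library.

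H2A genes had a median change of -0.94. The order of the medians of H1, H2A, H2B and H3 depended on the setting, and as deposited that of H2B was lower (-1.17 against -1.12 for H2A). Their sum was 950, 510, 266 and 1045 FPKM in 2D and 441, 537, 299 and 194 FPKM in 3D (-0.82, log2 difference of the sums). The largest decrease of the family was that of Hist1h2ab, whose stem-loop and promoter are shown above. It was at 198, 81.4, 42.1 and 211 FPKM in 2D and 23.3, 41.8, 17.1 and 8.51 FPKM in 3D (-2.43, SE 0.63, limma adjusted p = 0.0169). Every 3D library lay below every 2D library, although 3D mouse 4 and 2D mouse 4 were close. Hist1h2an was at 47.0, 22.6, 9.75 and 47.5 FPKM in 2D and 8.05, 8.38, 4.01 and 1.83 FPKM in 3D (-2.24, SE 0.59, limma adjusted p = 0.0176), also without overlap. It shares 83.3% of its 100-base windows with other members and Hist1h2ab shares 52.4%. The third H2A gene called, Hist1h2ao, shares 92.7% and was at 0.481 to 4.83 FPKM in 2D and 0 to 0.338 FPKM in 3D (-1.31, SE 0.40, limma adjusted p = 0.0323).

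Other abundant H2A genes did not pass the test. Hist2h2ac, the most abundant and the one with its own loop variant, was at 131, 88.6, 40.5 and 171 FPKM in 2D and 105, 117, 77.2 and 56.7 FPKM in 3D (-0.14, SE 0.45, limma adjusted p = 0.812). Hist1h2ai was at 106, 52.5, 25.9 and 117 FPKM in 2D and 51.6, 72.4, 34.3 and 15.5 FPKM in 3D (-0.75, SE 0.60, limma adjusted p = 0.358), with 82.0% of windows shared. The groups of both overlapped, with 2D mouse 4 below most 3D libraries. Hist3h2a, in the small cluster on chromosome 11, was the only abundant H2A gene with a positive change. It was at 60.1, 68.1, 37.0 and 50.7 FPKM in 2D and 92.4, 106, 77.0 and 55.0 FPKM in 3D (0.60, SE 0.25, limma adjusted p = 0.0909), and 3D mouse 7 lay within the range of 2D.

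H2B genes held the called decrease with the smallest SE and the single increase. Their sum was 2616, 1207, 729 and 2566 FPKM in 2D and 1139, 1326, 698 and 483 FPKM in 3D (-0.88, log2 difference of the sums). Hist1h2bc was at 299, 229, 193 and 317 FPKM in 2D and 78.4, 134, 108 and 95.5 FPKM in 3D, with a change of -1.31 (SE 0.21, limma adjusted p = 0.00196). All 3D libraries lay below all 2D libraries, and the 2D libraries of mice 3 and 4 stayed close to those of mice 2 and 5. Its model of 1156 nt has 2 exons, and the stem-loop pattern was not found in its transcripts. With the mouse as a block the adjusted p was 0.255. Hist1h2bh was at 110, 42.8, 28.3 and 103 FPKM in 2D and 24.3, 33.4, 12.3 and 7.29 FPKM in 3D (-1.82, SE 0.59, limma adjusted p = 0.0392), with 3D mouse 4 above 2D mouse 4. Hist1h2bf was called as well (-1.49, SE 0.51, limma adjusted p = 0.0490), and its call was lost in 6 of 8 settings without 1 library.

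Abundant H2B genes that did not pass had a wide spread. Hist1h2bb, with the octamer in its promoter, was at 505, 154, 85.6 and 505 FPKM in 2D and 75, 164, 78.8 and 36.4 FPKM in 3D (-1.63, SE 0.68, limma adjusted p = 0.0946). Hist2h2bb was at 478, 205, 101 and 461 FPKM in 2D and 386, 291, 158 and 121 FPKM in 3D (-0.27, SE 0.58, limma adjusted p = 0.727). Hist1h2be was at 344, 172, 82.6 and 337 FPKM in 2D and 163, 187, 114 and 78.8 FPKM in 3D (-0.64, SE 0.50, limma adjusted p = 0.342). In all 3 the groups overlapped, and 2D mice 2 and 5 stood above every 3D library.

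Hist3h2ba, an H2B gene on chromosome 11 whose stem-loop is of the common form, was the one member called higher. It was listed at 0 in 2D mice 2, 4 and 5 and at 0.555 FPKM in 2D mouse 3, and it was at 11.1, 14.5, 5.35 and 5.31 FPKM in 3D mice 1, 4, 5 and 7. The groups did not overlap, and the change was 3.06 (SE 0.34, limma adjusted p = 3.1e-04), a scale that understates changes from such low levels. With the mouse as a block the adjusted p was 0.132. The gene shares 4.85% of its windows with other members. Its neighbours changed less, with Hist3h2a at 0.60 as given above, the pseudogene Hist3h2bb-ps at 0.40 (SE 0.41, limma adjusted p = 0.462), Rnf187 at 0.27 (SE 0.09, limma adjusted p = 0.0538) and Trim17, which overlaps Hist3h2a, at 0.43 (SE 0.11, limma adjusted p = 0.0182). Trim17 itself was below 1 FPKM, with a mean of 0.241 ± 0.172 FPKM in 2D and 0.669 ± 0.156 in 3D (SD, n = 4). Beside it, the epithelial markers were higher in 3D as described, and their part in the rise of Hist3h2ba was not tested.

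All 12 H3 genes had a change below 0 as normalized here, but that of Hist1h3e was near 0 and turned positive under several alternatives, at most to 0.39 with the mouse as a block, and that of Hist1h3a came to 0.046 with the block and 0.052 with mice 4 and 5 alone. Their sum was 1203, 535, 331 and 1274 FPKM in 2D and 440, 638, 331 and 238 FPKM in 3D (-0.91, log2 difference of the sums). Hist1h3b was at 103, 30.8, 21.8 and 102 FPKM in 2D and 19.1, 17.9, 8.22 and 3.97 FPKM in 3D (-2.20, SE 0.66, limma adjusted p = 0.0297), without overlap. Hist1h3g was at 66.6, 28.8, 14.9 and 65.6 FPKM in 2D and 14.7, 17.8, 5.68 and 4.52 FPKM in 3D (-1.91, SE 0.59, limma adjusted p = 0.0345), with 3D mouse 4 above 2D mouse 4. Hist1h3i was the third H3 gene called (-1.27, SE 0.42, limma adjusted p = 0.0418), with no overlap. These genes share 56.6%, 37.1% and 68.6% of their windows with other members, in this order. The calls of Hist1h3b, Hist1h3g and Hist1h3i held in 4, 3 and 3 of the 8 settings without 1 library.

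The most abundant H3 genes differed among themselves. Hist1h3c was at 403, 138, 82.5 and 421 FPKM in 2D and 53.8, 150, 59.0 and 20.6 FPKM in 3D (-1.88, SE 0.72, limma adjusted p = 0.0722). Hist1h3e was at 212, 132, 75.2 and 192 FPKM in 2D and 153, 193, 129 and 102 FPKM in 3D (-0.01, SE 0.35, limma adjusted p = 0.979). These 2 carry the same stem-loop letters, and both groups overlapped. Hist1h3a was at 84.1, 46.4, 22.4 and 82.9 FPKM in 2D and 41.5, 62.3, 32.1 and 19.8 FPKM in 3D (-0.52, SE 0.49, limma adjusted p = 0.429). Hist1h3f was at 68.8, 37.1, 26.8 and 94.2 FPKM in 2D and 41.9, 46.3, 24.9 and 27.3 FPKM in 3D (-0.56, SE 0.41, limma adjusted p = 0.311).

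H4 genes held the largest part of the histone RNA, and their sum changed least on the normalized scale. Their sum was 4676, 2192, 1305 and 4470 FPKM in 2D and 3356, 2978, 2464 and 2278 FPKM in 3D (-0.02, log2 difference of the sums, -0.57 as deposited and 0.07 without genes under 300 nt). As deposited, 3D mice 5 and 7 (1890 and 1802 FPKM) also lay below 2D mouse 3 (2313 FPKM). Hist1h4d, the most abundant of all members, was at 999, 474, 302 and 982 FPKM in 2D and 606, 524, 481 and 481 FPKM in 3D (-0.23, SE 0.39, limma adjusted p = 0.652). All 3D libraries lay between the higher and the lower pair of 2D libraries. It shares no window with another member.

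The next H4 genes had similar ranges. Hist1h4h was at 572, 297, 216 and 514 FPKM in 2D and 405, 374, 367 and 325 FPKM in 3D (-0.01, SE 0.31, limma adjusted p = 0.974). Hist1h4c was at 552, 282, 160 and 590 FPKM in 2D and 285, 466, 328 and 342 FPKM in 3D (0.0034, SE 0.42, limma adjusted p = 0.994). Both lay inside the 2D range in every 3D library, and CCAAT was found in the 300-base window of Hist1h4c, before the stretch shown above, but not in that of Hist1h4h. Hist1h4f was at 616, 241, 123 and 609 FPKM in 2D and 213, 290, 233 and 175 FPKM in 3D (-0.54, SE 0.52, limma adjusted p = 0.441). A pair of less abundant H4 genes, chosen after their values were seen, stood out in 1 library. Hist1h4i was at 73.1, 49.2, 28.7 and 80.0 FPKM in 2D and 236, 71.8, 44.6 and 40.5 FPKM in 3D, and Hist4h4, on chromosome 6, at 79.8, 55.5, 20.4 and 81.8 FPKM in 2D and 268, 82.8, 52.1 and 47.7 FPKM in 3D. The highest value of both was that of 3D mouse 1, the library with the large share of genes under 300 nt. Its part in these values was not tested.

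The share of H4 in the summed core histone level removes the differences in total between libraries. It was 49.5, 49.3, 49.6 and 47.8% in 2D mice 2, 3, 4 and 5 (49.1% ± 0.858, SD, n = 4) and 62.4, 54.4, 65.0 and 71.4% in 3D mice 1, 4, 5 and 7 (63.3% ± 7.04, SD, n = 4). The 2D libraries lay within a narrow range although their totals differed widely, and every 3D library was above them. As deposited, the shares were 49.2% ± 1.28 in 2D and 61.9% ± 6.03 in 3D (SD, n = 4). In the 35 core histone genes with models from 300 to under 600 nt, of which 6 were H4, the share was 43.9 to 49.6% in 2D and 50.0 to 69.9% in 3D. The ratio of H4 to H2B was between 1.74 and 1.82 in 2D and between 2.25 and 4.72 in 3D. These are descriptions with no test, since the members and types were chosen with earlier results known.

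**Figure D4:**
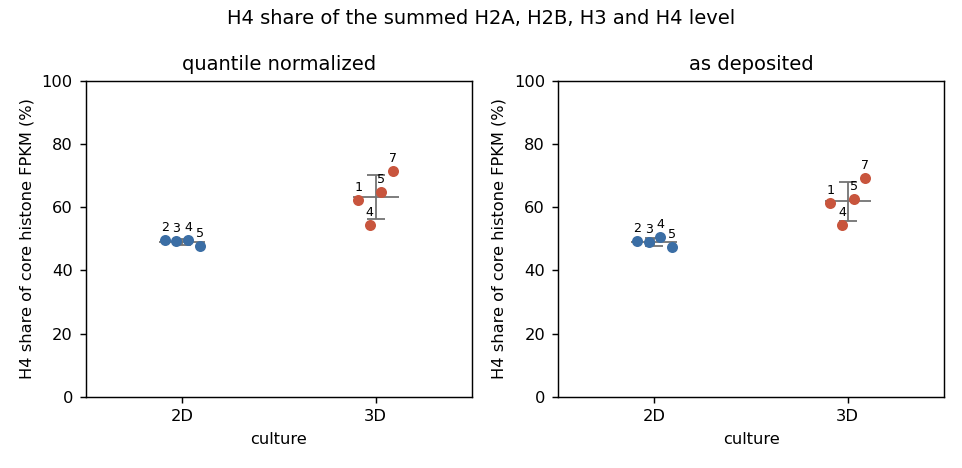
Share of H4 in the summed FPKM of H2A, H2B, H3 and H4 (y axis, percent) by culture (x axis), from quantile-normalized (left) and deposited values (right), with 1 point per library labelled with its mouse number and lines for mean and SD (n = 4). The 2D libraries sit together near 49.1% and the 3D libraries spread from 54.4 to 71.4% in the normalized values.

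Mice 4 and 5, which gave a culture of each kind, went in opposite directions. In mouse 4, 49 of 57 members were higher in 3D than in 2D, with a median difference of 0.93 (log2). In mouse 5, 53 of 57 were lower, with a median of -1.57. Over all 18862 genes tested, 8989 were higher in 3D in mouse 4 and 8354 lower in mouse 5, with medians of 0. All 12 H4 genes were higher in mouse 4 (median 1.26) and lower in mouse 5 (median -0.84). The 8 members lower in 3D also in mouse 4 were Hist1h2ab, Hist1h2ad, Hist1h2af, Hist1h2an, Hist1h2ao, Hist1h2bc, Hist1h3b and Hist1h3i, which include 6 of the 10 genes called. Hist1h1t, also called, was outside the 57 and near the floor in mouse 4 (0.192 FPKM in 2D and 0 in 3D). The 4 members higher in 3D also in mouse 5 were Hist2h2be and the 3 genes of chromosome 11, Hist3h2a, Hist3h2ba and Hist3h2bb-ps.

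Position and gene model were compared as features that did not choose the members. There were 13 pairs of an H2A and an H2B gene that start head to head within 500 bases of each other. In the 12 pairs with both genes tested, the changes of the partners differed by between 0.05 and 1.56 on the log2 scale. The widest gap was that of Hist1h2an (-2.24) and Hist1h2bp (-0.68), with 243 bases between their starts, and the narrowest that of Hist1h2ai (-0.75) and Hist1h2bl (-0.70). These differences were not tested. The 18 members with gene models over 1000 nt had a median change of -0.18, with 2 lower (11.1%), and the 48 with shorter models -0.69, with 8 lower (16.7%) and 1 higher (2.08%). A mean of 1 FPKM or more was found in 14 of the 18 and in 43 of the 48. These 2 sets were not matched for level or histone type. Medians of other genes were -0.0015 above 1000 nt, 0.03 from 500 to 1000 nt and 0.05 from 300 to 500 nt. Of these other genes 21.3%, 11.6% and 2.63% were lower and 21.7%, 16.5% and 12.3% higher, in this order.

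Genes that copy DNA are on at the same time as these histones, and more of them passed the test. Of 19 DNA synthesis and cycling genes, 13 were lower in 3D and 0 higher (68.4% lower, against 20.3% of all genes), with a median change of -1.11. Their summed level was between 293 and 563 FPKM in 2D and between 105 and 204 FPKM in 3D, without overlap, while the histone sums overlapped. Rrm2, a subunit of ribonucleotide reductase, was at 72.7, 36.9, 35.5 and 92.0 FPKM in 2D and 16.5, 14.9, 7.47 and 4.06 FPKM in 3D (-2.41, SE 0.48, limma adjusted p = 0.00531). Its 2D libraries stood in the same order of pairs as those of most histone genes, with mice 2 and 5 above mice 3 and 4. Mki67, a marker of cycling cells, was at 33.0, 18.1, 12.9 and 47.3 FPKM in 2D and 18.1, 19.3, 7.46 and 2.79 FPKM in 3D (-1.28, SE 0.62, limma adjusted p = 0.140).

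Replacement histones, most of which are made throughout the cell cycle from messages with poly(A) tails, had a higher sum in 3D. H2afx, 1 of the 11 listed, also gives a message that ends in a stem-loop. The sum was between 616 and 786 FPKM in 2D and between 1063 and 1288 FPKM in 3D. Most of the difference came from H3f3a (mean of 202 FPKM in 2D and 368 in 3D) and H3f3b (127 and 320 FPKM). The levels of H2afz, with means of 183 and 210 FPKM, overlapped between the cultures. This sum was taken on the normalized scale only. Of 11 genes, 4 were higher (H3f3a, H3f3b, H2afy and H1f0) and 2 lower (H2afy2 and Cenpa), or 36.4% and 18.2%, beside 21.2% and 20.3% of all genes. H3f3b, which codes for the replacement histone H3.3, was at 105, 167, 140 and 96.9 FPKM in 2D and 305, 344, 287 and 344 FPKM in 3D (1.35, SE 0.18, limma adjusted p = 7.3e-04). H1f0, a linker histone of resting and differentiated cells, was at 35.2, 38.3, 32.8 and 43.3 FPKM in 2D and 105, 113, 88.7 and 93.0 FPKM in 3D (1.39, SE 0.11, limma adjusted p = 6.2e-05). In both the cultures did not overlap. Cenpa, the H3 variant of centromeres, was at 30.8, 17.1, 10.5 and 30.4 FPKM in 2D and 5.64, 8.47, 3.51 and 1.70 FPKM in 3D (-2.02, SE 0.47, limma adjusted p = 0.0104).

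**Figure D5:**
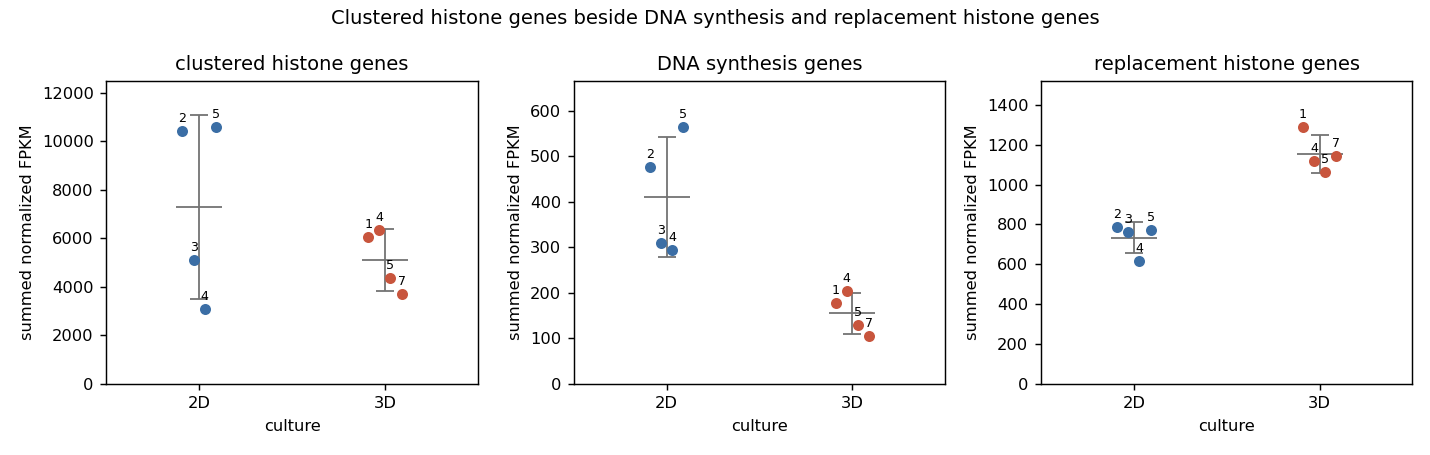
Summed normalized FPKM (y axis, from 0) of the 68 clustered histone genes, 19 DNA synthesis genes and 11 replacement histone genes by culture (x axis), with 1 point per library labelled with its mouse number and lines for mean and SD (n = 4). The cultures overlap for the clustered genes, are lower in 3D for DNA synthesis (105 to 204 FPKM) and higher in 3D for replacement histones (1063 to 1288 FPKM). The difference for replacement histones comes mostly from H3f3a and H3f3b.

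Among 9 regulators of histone gene transcription, 3 were lower (33.3%) and 1 higher (11.1%) in 3D, beside 20.3% and 21.2% of all genes. The lower ones were Npat, the coactivator that cyclin E and its kinase switch on at histone genes (7.66 ± 0.650 FPKM in 2D and 5.79 ± 0.421 in 3D, SD, n = 4), and the cyclins Ccne1 (18.1 ± 8.90 and 1.96 ± 0.884 FPKM) and Ccne2 (4.64 ± 2.99 and 0.437 ± 0.174 FPKM). Gon4l was higher. Hinfp, which binds H4 promoters, was at 5.83 ± 0.948 FPKM in 2D and 6.18 ± 0.611 in 3D (0.08, SE 0.14, limma adjusted p = 0.683, SD over 4 libraries). Of 11 tested genes for the 3′ end of histone messages, Lsm11, Cpsf2, Ncbp1 and Ncbp2 were lower (36.4%) and Sympk higher (9.09%). Slbp, which binds the stem-loops shown above, was at 19.2, 15.3, 13 and 21.3 FPKM in 2D and 22.1, 21.5, 16.1 and 13.5 FPKM in 3D (0.08, SE 0.20, limma adjusted p = 0.764). The groups overlapped, and 2D mice 2 and 5 were again above mice 3 and 4.

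Members at low levels add little. Of the 66 tested, 9 had a mean below 1 FPKM, among them Hist1h2ba, an H2B of the testis, at 1.52, 1.57, 0.241 and 0 FPKM in 2D and 0, 0.522, 0 and 0 FPKM in 3D (-0.60, SE 0.34, limma adjusted p = 0.198). Of the 3 testis members, Hist1h2aa was listed at 0 throughout and Hist1h1t was given with the H1 genes. Hist2h2aa1 and Hist2h2aa2, near-identical H2A copies on chromosome 3 with 88.1% and 100% of their windows shared, stood below 1 FPKM in every library, and so did Hist2h3c1 and Hist2h3c2, with 32.9% and 61.6% shared.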

How the data were processed

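The study measured RNA of 8 mouse ADSC cultures by directional paired-end sequencing after depletion of ribosomal RNA. The authors trimmed the reads, mapped them with TopHat and estimated gene levels with Cufflinks, and the deposited values are FPKM values per gene symbol, without counts. The submitters' processing notes name TopHat and mm10. The Cufflinks version, annotation and strand setting are not given in the sources used here. Each file holds 1 library, and 0 columns were left unused.

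Members were 68 symbols beginning with Hist1h to Hist4h. Members and lists were chosen with earlier results of these data known. Genes at 0 in every library (5484 of 24346) were left out. The other 18862 were quantile normalized, which the methods of the study describe as its next step, and log2(FPKM + 1) was compared between 3D and 2D with limma 3.58.1 in R 4.3.3 (moderated test with an intensity trend, no covariate, Benjamini-Hochberg over 18862 genes). A fold change on this scale understates the change of low genes. Sums over a type add normalized FPKM and have no test. Their log2 difference is between the means of the log2 sums. On simulated data of the same layout, 82 of 100 changes of 1.5 and 98 of 100 of 3 on the log2 scale were called. The changed genes were drawn at random above a level limit, each with its own spread, so that these rates are not those of the histone members. Hist1h2bb and Hist1h3c, with changes of -1.63 (SE 0.68) and -1.88 (SE 0.72), were not called.

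Values in each library are given for the 4 most abundant members of each type, the 5 largest changes among members called lower, and members called higher, beside Mki67, testis members and genes of the lists. Symbols of 68 of 68 members matched GENCODE M21 and RefSeq (GRCm38). The files give no depth. It was inferred from how low FPKM values of 875 genes step from one to the next, and in each library 69.9% to 81.2% of these values were close to whole multiples.

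The same animal gave both libraries of mouse 4 and of mouse 5, per the labels. Deviations of their 2D and 3D libraries from the culture means correlated at -0.05 and -0.11 over 12577 genes.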

Additional observations from a re-analysis of the deposited data

Results flagged for a closer look

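Hist3h2ba in the 2D cultures was the 1 result of 64 groups of 4 libraries examined in which a library stood far from the others. It was at 0.555 FPKM in mouse 3 and listed at 0 in mice 2, 4 and 5. Chance marks about 1 in 20 such groups, and with the other 3 libraries at 0 any value above 0 is marked. The groups examined did not cover every member. In 3D, Hist1h1t was above 0 in mouse 7 alone and Hist1h2ba in mouse 4 alone, and Hist1h4i and Hist4h4 stood out in mouse 1, as given above.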

How the results depend on the processing

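Alternatives were the values as deposited, upper-quartile scaling, normalization without genes under 300 nt, a fit with no intensity trend, a filter at a mean of 1 FPKM, 0.1 as the pseudocount, a fixed block for the mouse, a random effect for it, mice 4 and 5 alone, and 1 library left out at a time. The cause of a change was not tested, also where the alternative has fewer libraries. The count of members lower in 3D was 10 and became 15 with values as deposited, 0 with the replicate block, 0 with only mice 4 and 5 (2 at an unadjusted p below 0.05), and between 3 and 17 with a library left out. As deposited, 4069 of 18862 genes in all were lower, a slightly smaller share than that of the 66 members. With only mice 4 and 5 it was 1432 of 18081 genes, and with a library left out between 3204 and 3835 genes. The count higher was 1 and became 2 with values as deposited, with upper-quartile scaling and without the intensity trend (Hist2h2be joined), 0 with the replicate block, and between 1 and 2 with a library left out. Over all genes the count higher was 4000, and between 3393 and 4051 with a library left out. The block is paired on mice 4 and 5. The summed level of H1 moved from -0.28 to -0.85 with values as deposited and to -0.79 with upper-quartile scaling. In the same 2 settings the H4 sum moved by about as much, from -0.02 to -0.57 and -0.51. That of all members moved from -0.37 to -0.89 and -0.84. These and the other sums moved by less than their SD between libraries, which was 0.65 for H4 and 0.49 for H1. Such an SD does not measure a shift of scale between the cultures.

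Named genes with changes near 0 turned sign, none of them called in either direction. With values as deposited Hist1h1e came to -0.39 and Hist1h4c to -0.54, and with upper-quartile scaling to -0.33 and -0.49. Without genes under 300 nt Hist1h4h came to 0.11 and Hist1h3e to 0.024. With only mice 4 and 5 Hist1h4h came to 0.13, Hist1h3a to 0.052, Hist1h3e to 0.39 and Hist2h2ac to 0.18, and with the block to 0.16, 0.046, 0.39 and 0.19. As a random effect of the mouse, Hist1h4c came to -0.0040. With a library left out the changes ran from -0.59 to 0.0015 for Hist1h4d, -0.28 to 0.20 for Hist1h4h, -0.32 to 0.18 for Hist1h3e, -0.54 to 0.13 for Hist2h2ac, -0.72 to 0.024 for Hist2h2bb, -0.37 to 0.25 for Hist1h4c, -0.033 to 0.44 for Hist1h1e and -0.27 to 0.035 for Hist1h1c. Depth limits Hist1h1t, Hist1h2ao and Hist3h2ba in 2D, which lay near the level of a few fragments.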

Other observations

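Histone chaperones, which carry new histones to DNA, were mixed. Of 16 tested, 4 were lower in 3D (25%) and 2 higher (12.5%), beside 20.3% and 21.2% of all genes. Those lower were Asf1b (10.4 ± 5.77 FPKM in 2D and 2.03 ± 0.762 in 3D), Chaf1a (12.9 ± 5.73 and 3.95 ± 0.991), Chaf1b (10.1 ± 3.04 and 5.93 ± 1.20) and Nap1l1 (151 ± 37.4 and 91.4 ± 24.4, SD over 4 libraries each). The chromatin assembly subunits Chaf1a and Chaf1b and the S phase form Asf1b work during DNA synthesis. Its relative Asf1a was at 9.77 ± 0.628 FPKM in 2D and 9.76 ± 1.43 in 3D (-0.01, SE 0.12, limma adjusted p = 0.950). The higher ones were Cabin1 (7.65 ± 0.988 and 22.4 ± 1.62 FPKM) and Atrx (21.8 ± 3.94 and 35.6 ± 2.93 FPKM), which act with the chaperones of the replacement histone H3.3.

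Of 5 genes that act in the decay of histone messages, Lsm1 was lower in 3D (8.79 ± 0.793 FPKM in 2D and 4.85 ± 0.564 in 3D) and Zcchc11, a uridylyl transferase, higher (3.98 ± 0.647 and 7.27 ± 0.547 FPKM, SD over 4 libraries). These shares, 20% lower and 20% higher, were near the 20.3% and 21.2% of all genes. Eri1, the nuclease that trims the stem-loop, was at 10.6 ± 2.23 FPKM in 2D and 7.69 ± 0.618 in 3D (-0.40, SE 0.15, limma adjusted p = 0.0746), with every 3D library below every 2D library. Sums over the other marker lists were 0.412 to 6.71 FPKM in 2D and 0.0480 to 0.202 in 3D for 4 endothelial genes, 1.52 to 4.49 and 6.25 to 42.3 for 4 leukocyte genes, and 12.9 to 48.1 and 0.0799 to 0.546 for 3 tested adipocyte genes. The leukocyte sum in 3D was mostly Cd68 (5.98 to 36.3 FPKM) and Csf1r (0.264 to 7.65 FPKM). In 3D, Adgre1 was listed at 0 in every library and Ptprc was at most 0.0779 FPKM. The endothelial sums of 2D mice 3 and 4 were mostly Kdr (3.92 and 6.34 FPKM).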
